A study of Mus musculus with 47 samples.

Results

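Respiratory complexes III, IV and V are the last 3 machines of mitochondrial oxidative phosphorylation, and this account follows the nuclear genes of their subunits. Members were every row of the deposited tables whose symbol begins with Uqcr, with Cox followed by a digit from 4 to 8, or with Atp5, pseudogene symbols left out. The rule used no measured value and gave 43 of 24391 rows, 8 for complex III, 18 for complex IV and 17 for complex V. It was chosen with earlier results of these data known. Symbols decide membership, so Atp5sl, named for its likeness to Atp5s and known as an assembly factor of complex I, and Cox7a2l, a factor that joins complexes III and IV, are counted too. RefSeq lists Atp5sl as Dmac2 and Atp5s as Dmac2l.

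RNA came from brown fat (BAT), white fat (WAT) and the gastrocnemius calf muscle (GN) of mice with C57Bl6 as their labelled strain background, collected on day 21. NTB mice carried no tumour, and their labels name no antibody or dose. IgG1 mice were inoculated with HT1080, a human fibrosarcoma line, and received a control IgG1 antibody. 3P10 mice carried the same tumour and received 3P10, an antibody against GFRAL, which is the brain receptor for the circulating factor GDF15. Each antibody was dosed at 3 mg/kg every week from the start, so IgG1 against NTB joins tumour and control antibody, and 3P10 against IgG1 compares antibodies in tumour-bearing mice. Age, sex and the immune status of hosts that accepted a human tumour are not given in the sources used here. The lymphocyte marker Cd79a lay at 0 to 0.178 CPM in all libraries, and the list of 8 lymphocyte genes summed to at most 2.17 CPM. These tissue values do not tell the immune status. BAT gave 6 NTB, 5 IgG1 and 6 3P10 libraries, and WAT and GN gave 5 for each group. Nothing states that libraries came from separate litters or days, so p-values measure the spread between these samples.

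Complex III passes electrons from ubiquinol to cytochrome c through its Rieske iron-sulfur protein, complex IV passes them from cytochrome c to oxygen, and both pump protons. Complex V, the ATP synthase, lets protons return through a ring of c subunits and makes ATP. Brown fat is rich in complexes III and IV but is known for its low content of ATP synthase, since uncoupling protein UCP1 lets protons return without making ATP. Several subunits of complex IV come in a form found in most tissues and a form found in heart and skeletal muscle, such as Cox6a1 and Cox6a2, Cox7a2 and Cox7a1, and Cox8a and Cox8b.

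Levels are counts per M library counts (CPM, where M is 1e+06) after TMM scaling within a tissue. Library totals were 0.799 to 2.46 M counts in BAT, 18.6 to 80.7 M in WAT and 24.8 to 33.5 M in GN. The tissues carried their defining markers, with Ucp1 at 2794 to 5749 CPM in BAT, Adipoq at 1824 to 4363 CPM in WAT and Acta1 at 13084 to 28898 CPM in GN. BAT was read with a kit that counts the 3' end of transcripts and WAT and GN with a kit that reads along them, so BAT is described apart. BAT libraries were numbered group by group, and library order and group cannot be told apart there. In bulk tissue, fewer cells of a type and less RNA per cell cannot be told apart.

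The tissue forms of the subunits came first, because they check which cells the RNA came from. Among Cox6a reads, the muscle form Cox6a2 held 93.8 to 96.5% in GN of NTB mice, 0.457 to 1.03% in WAT and 1.15 to 5.90% in BAT. The GN shares lay above every WAT and BAT share. Fast skeletal muscle markers summed to 850 to 3085 CPM in BAT of NTB mice, and their part in the BAT share was not tested. Cox8b held 70.8 to 81.6% of Cox8 reads in GN, 62.4 to 79.0% in BAT and 4.62 to 13.9% in WAT of NTB mice, so brown fat resembled muscle in this pair and not in Cox6a. Cox7a1 held 55.7 to 68.6% of Cox7a1 and Cox7a2 reads in GN, 47.6 to 51.6% in BAT and 8.29 to 33.6% in WAT of the same group. Shares are of reads, so a longer transcript weighs more where reads fall along it, and BAT shares are set beside the others as values only.

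**Figure D1:**
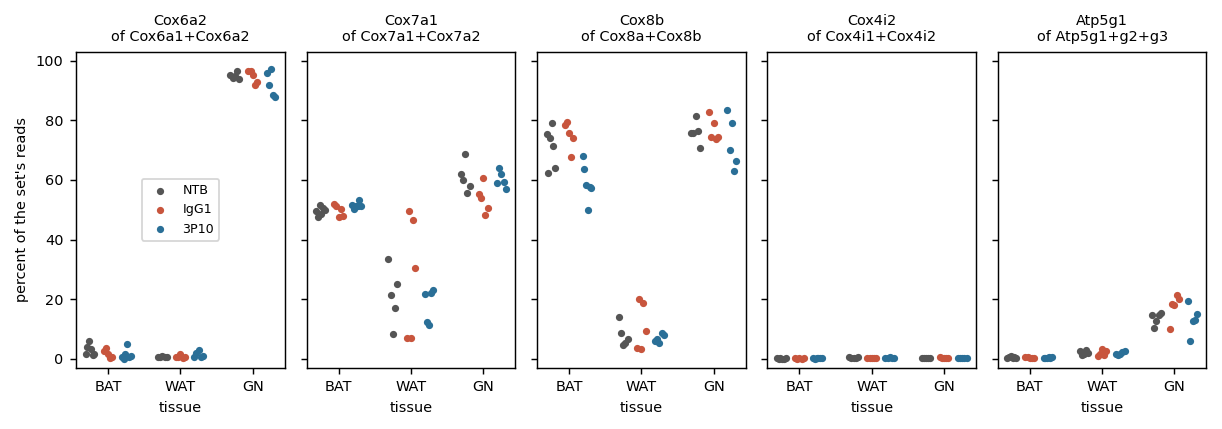
Share of a subunit set's reads held by one isoform, in percent, for 5 sets (panels), 3 tissues (horizontal axis) and 3 groups (colours), 1 point per library. Cox6a2 lies at 87.9 to 97.3% in GN and under 6% elsewhere, while Cox8b is high in both BAT and GN, and the WAT points of Cox7a1 spread most in IgG1.

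The promoters of Cox8a, Cox8b, Uqcr11 and Cox6a1 are shown because Cox8a and Cox8b are isoform partners that divide WAT from GN and BAT and because Cox8a, Uqcr11 and Cox6a1 are among the members that rose in brown fat, as described further on. Capitals mark the letters searched on both strands: CCGGAAGT, the core bound by GABPA; CGCATGCG, the core bound by NRF1; and CAGCTG, the E-box letters. GABPA and NRF1 are transcription factors known to regulate nuclear respiratory genes, and myogenic factors bind E-boxes. Other runs were searched, AAGATGGCG for YY1, TCAAGGTCA for the estrogen-related receptors and CTATTTATA for MEF2. Each line gives 100 bases of RefSeq sequence (GRCm38.p6, not the mm9 build of the counts), 5′ to 3′ on the gene's minus strand. The first 3 lines run from 92 bases before the annotated start to 8 bases past it, and the last from 200 bases before it.
Cox8a, chr19:7217609-7217708: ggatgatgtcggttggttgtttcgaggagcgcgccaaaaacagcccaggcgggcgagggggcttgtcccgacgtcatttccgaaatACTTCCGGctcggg
Cox8b, chr7:140900439-140900538: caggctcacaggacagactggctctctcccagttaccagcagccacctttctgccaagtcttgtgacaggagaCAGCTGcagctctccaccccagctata
Uqcr11, chr10:80406814-80406913: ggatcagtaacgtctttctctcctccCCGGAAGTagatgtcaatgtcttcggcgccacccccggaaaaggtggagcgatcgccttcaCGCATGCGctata
Cox6a1, chr5:115349059-115349158: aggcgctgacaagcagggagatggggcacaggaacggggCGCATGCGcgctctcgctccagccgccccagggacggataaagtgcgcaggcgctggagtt
Of the 43 members, 34 had a promoter of 300 bases in the table. The NRF1 letters were in 7 of them (20.6%), among them Cox6a1 and Uqcr11, against 2.075% of all 26742 genes with a promoter there. The GABPA letters were in 4 (11.8%), Cox8a, Uqcr11, Uqcrh and Atp5h, against 4.35% of all genes. The E-box letters were in Cox8b and Atp5b alone among members with a promoter (5.88%), against 18.4% of all genes. The YY1 letters were in 3 (8.82% against 1.65%), those of the estrogen-related receptors in Atp5g3 (2.94% against 0.456%) and those of MEF2 in 0 (against 0.497%). A match is a run of letters and no measured binding, and no match says only that these letters are not in the window.

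GN and WAT share a kit and a table, so their levels in NTB mice were tested in 1 joint edgeR fit. Of 41 members tested, 35 were higher in GN, 3 were lower and 3 did not pass (p under 0.05 after Benjamini-Hochberg adjustment over every gene tested). The background was broad: 71.7% of all genes tested differed, 33% higher and 38.7% lower. All 8 members of complex III and 16 of the 17 of complex V were higher. Without GN NTB replicate 3, a library described further on, Uqcrh and Uqcrq of complex III and Atp5k of complex V no longer passed. Nor did Cox4i1, Cox6b1 and Cox7a2l of complex IV. The median member difference was 1.42 on the log2 scale, against -0.10 over all genes. The joint fit scales both tissues together, so its differences are not ratios of the CPM printed here, which are scaled within a tissue. Which way a member differs can depend on that scaling. Cox4i1 and Cox6b1 averaged 714 and 428 CPM in GN and 858 and 504 CPM in WAT of NTB mice, yet were called higher in GN. The 3 lower members were Cox6a1 (-3.51 ± 0.41, SE, adjusted p = 1.29e-08), Cox8a (-3.27 ± 0.29, adjusted p = 3.64e-11) and Cox6b2, known as a testis form (-2.29 ± 0.51, adjusted p = 2.18e-04). These directions held with RLE factors and with DESeq2, where the same 38 were called among 39. Libraries of the 2 tissues carry the same library number within each group, which the labels do not explain and which may mark the same mouse. The joint fit takes them as independent. With the library number as a block, 35 members were called, 32 higher and 3 lower, and Cox4i1, Cox6b1 and Uqcrq no longer passed.

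Isoform partners ran against each other between the tissues. Cox6a2 read 524, 370, 1251, 595 and 514 CPM in the 5 GN libraries of NTB mice and 3.99 to 5.39 CPM in the WAT libraries, a log2 difference of 8.09 ± 0.55 (SE, adjusted p = 2.01e-13). Its partner Cox6a1 read 21.5 to 65.8 CPM in GN and 520 to 991 CPM in WAT. Per kilobase of its principal transcript, Cox6a2 stood at 957 ± 508 (SD, n = 5) CPM in GN against 59.2 ± 32.6 for Cox6a1, and in WAT Cox6a1 stood at 1314 ± 308 against 6.81 ± 0.745 for Cox6a2. The 2 forms did not overlap in either tissue. Cox8b was higher in GN by 2.01 ± 0.52 (adjusted p = 0.00122) and Cox7a1 by 2.96 ± 0.72 (adjusted p = 6.32e-04), while Cox7a2 did not pass (0.48 ± 0.31, adjusted p = 0.16).

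The c ring of ATP synthase is coded by 3 genes with different targeting sequences and the same mature protein. Atp5g1 was higher in GN by 4.08 ± 0.36 (SE, adjusted p = 3.77e-11), Atp5g2 by 1.39 ± 0.16 (adjusted p = 1.46e-08) and Atp5g3 by 1.19 ± 0.24 (adjusted p = 5.96e-05). Even so, Atp5g3 was the highest of the 3 per kilobase in both tissues, at 928 ± 410 CPM in GN and 793 ± 102 CPM in WAT (SD, n = 5). Atp5g1 stood at 41.9 ± 15.4 and 4.83 ± 1.77 CPM per kilobase in the same order. For cytochrome oxidase subunit 4, Cox4i1 carried nearly all reads in every tissue: Cox4i2, the form known for hypoxic and lung tissue, held at most 0.513% of the pair in any library. Cox7b2 and Cox8c had 0 reads in all 47 libraries, which allows up to 3 counts in each.

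In brown fat, members of all 3 complexes changed with the antibody. In BAT of 3P10 mice against IgG1 mice, 15 of the 37 members tested rose, 4 fell and 18 did not pass. That is 51.4% of members, where 11.6% of all 8711 genes tested were called, 6.05% higher and 5.58% lower. The groups did not overlap in 9 of the 37 members, against 6.29% of all genes. Complex III had 5 higher and 1 lower of 8, complex IV had 7 higher and 1 lower of 14, and complex V had 3 higher and 2 lower of 15. Median log2 differences were 0.30, 0.30 and 0.02 in that order, against -0.01 over all genes. The 6 members not tested were Atp5g1, Atp5g2, Cox4i2, Cox6b2, Cox7b2 and Cox8c, none above 12.7 CPM in a BAT library.

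**Figure D2:**
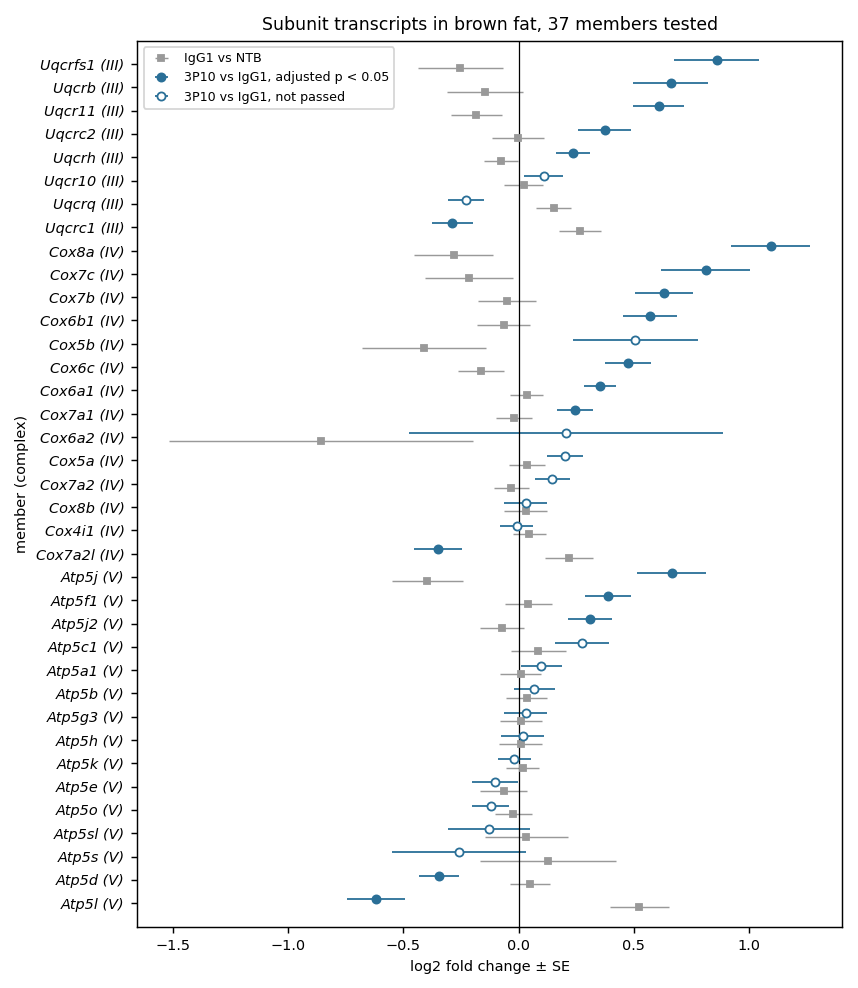
Log2 fold changes with standard errors in brown fat for the 37 members tested, ordered within each complex. Filled circles are members that passed in 3P10 against IgG1 (15 higher, 4 lower), open circles those that did not, and grey squares give IgG1 against NTB, where Atp5l alone passed. The comparisons share the IgG1 libraries, so opposite signs in a row are partly built in.

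Cox8a, the ubiquitous form of the smallest complex IV subunit, rose most. It read 259, 228, 283, 381 and 278 CPM in the 5 IgG1 libraries, and from 434 to 765 CPM with a median of 643 in the 6 3P10 libraries. Every 3P10 library lay above every IgG1 library. The log2 difference was 1.09 ± 0.17 (SE, adjusted p = 4.87e-04). Its partner Cox8b, at 797 to 936 CPM in IgG1 and 684 to 1066 CPM in 3P10, differed by 0.03 ± 0.09 (adjusted p = 0.877). The Cox8b share of the pair was 75.1 ± 4.67% in IgG1 and 59.1 ± 6.13% in 3P10 (SD, n = 5 and 6). That difference had an exact 2-sided permutation p = 0.00649, where 0.00216 is the smallest possible, and p = 0.162 after adjustment over all 45 isoform share tests.

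Other structural subunits of complex IV rose with it. Cox6b1, which lies on the cytochrome c side, read 856, 827, 799, 1096 and 864 CPM in IgG1 and 1097 to 1518 CPM with a median of 1339 in 3P10 (0.57 ± 0.12, adjusted p = 0.003). The groups did not overlap, but the highest IgG1 library, replicate 4, lay within 1 CPM of the lowest 3P10 library. Cox7b read 985, 814, 794, 1058 and 905 CPM in IgG1 and 1220.5 to 1759.5 CPM with a median of 1348 in 3P10 (0.63 ± 0.13, adjusted p = 0.00254), without overlap. Cox6a1 read 1301 to 1491 CPM in IgG1 and 1643 to 1838 CPM in 3P10 (0.35 ± 0.07, adjusted p = 0.00271), and Cox6c read 1613 to 1971 against 2143 to 2718 CPM (0.47 ± 0.10, adjusted p = 0.00411). Neither pair of groups overlapped. Cox7c (0.81 ± 0.19, adjusted p = 0.00922) and Cox7a1 (0.25 ± 0.08, adjusted p = 0.0434) passed with overlapping groups. Cox7a2l, the factor that joins complexes III and IV, fell by 0.35 ± 0.10 (adjusted p = 0.0320), also with overlap. Cox4i1, among the largest nuclear subunits, did not pass (-0.01 ± 0.07, adjusted p = 0.965), nor did Cox5a (0.20 ± 0.08, adjusted p = 0.098), Cox5b (0.51 ± 0.27, adjusted p = 0.237) or Cox7a2 (0.15 ± 0.08, adjusted p = 0.223).

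In complex III, Uqcr11, a small subunit, read 211, 203, 214, 255 and 223 CPM in IgG1 and 295 to 412 CPM with a median of 322 in 3P10 (0.61 ± 0.11, adjusted p = 0.00141). The groups did not overlap. Uqcrfs1, the Rieske protein, read 880, 657, 809, 1219 and 988 CPM in IgG1 and 1113 to 1973 CPM with a median of 1767 in 3P10 (0.86 ± 0.19, adjusted p = 0.00469). Here IgG1 replicate 4 reached into the 3P10 range. Uqcrb rose by 0.66 ± 0.16 (adjusted p = 0.012), Uqcrh, the hinge protein, by 0.24 ± 0.07 (adjusted p = 0.0398), and Uqcrc2, a core protein, by 0.37 ± 0.11 (adjusted p = 0.0347). The other core protein, Uqcrc1, fell by 0.29 ± 0.09 (adjusted p = 0.0418).

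ATP synthase members moved both ways. Atp5j, coupling factor 6 of the stalk, read 80.6, 74.2, 62.7, 85.9 and 77.7 CPM in IgG1 and 82.9 to 168 CPM with a median of 125 in 3P10 (0.66 ± 0.15, adjusted p = 0.00656), with overlap. Atp5f1, subunit b of the stalk, rose by 0.39 ± 0.10 (adjusted p = 0.0159), and Atp5j2, subunit f of the membrane part, rose by 0.31 ± 0.09 (adjusted p = 0.0357). Atp5l, subunit g of the membrane part, read 37.5, 47.7, 44.5, 47.0 and 45.6 CPM in IgG1 and 25.1 to 33.8 CPM with a median of 28.6 in 3P10, a fall by 0.62 ± 0.13 (adjusted p = 0.00324) without overlap. Atp5d, subunit delta of the central stalk, fell by 0.35 ± 0.09 (adjusted p = 0.0132), again without overlap. Subunits alpha and beta of the catalytic head did not pass, Atp5a1 differing by 0.10 ± 0.09 (adjusted p = 0.509) and Atp5b by 0.07 ± 0.09 (adjusted p = 0.685). Nor did Atp5c1, subunit gamma of the central stalk (0.28 ± 0.12, adjusted p = 0.128). RefSeq names 2 pseudogenes of Atp5l, 2 of Uqcrh and 1 each of Cox7c and Atp5f1, so reads of these members may be split with a copy. Of the 19 calls, 13 held when any single library was left out. The other 6 (Uqcrc1, Uqcrc2, Uqcrh, Cox7a1, Cox7a2l and Atp5j2) ended without one or another of NTB replicate 5, any IgG1 replicate or 3P10 replicates 2 to 6.

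**Figure D3:**
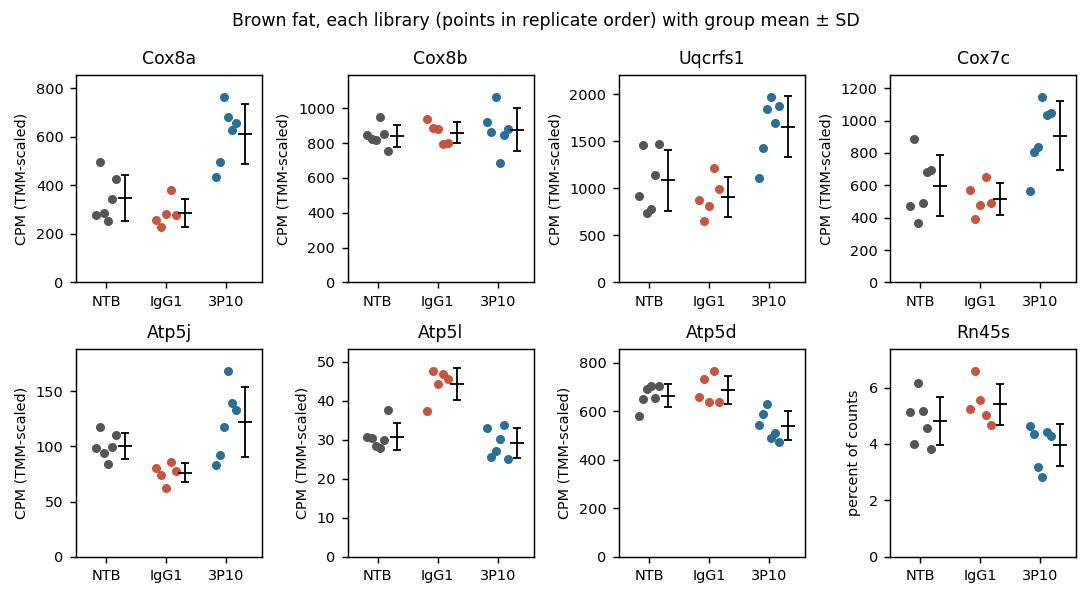
Levels of 7 members in brown fat by group, 1 point per library, with group mean ± SD beside them, and the share of counts in Rn45s, the ribosomal RNA precursor gene, in the last panel. Cox8a is higher and Atp5l and Atp5d are lower in all 3P10 libraries than in all IgG1 libraries, Cox8b is level, and Rn45s runs at 4.66 to 6.58% in IgG1 and 2.84 to 4.65% in 3P10.

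The share of one other gene also differed between these groups. Rn45s, which encodes the ribosomal RNA precursor, held 5.22, 6.58, 5.55, 5.04 and 4.66% of counts in the 5 IgG1 libraries and 2.84 to 4.65% in 3P10, without overlap. Within NTB, the Rn45s shares of replicates 1 to 6 were 5.15, 4.01, 6.16, 5.18, 4.57 and 3.83%. Uqcrfs1, chosen after its values were seen, read 914, 1463, 739, 783, 1141 and 1468 CPM in the same libraries, in the reverse order. Cox6a1 read 1232, 1433, 1346, 1253, 1361 and 1408 CPM there and did not follow that order, since replicate 3, with the highest Rn45s share, was not low. With the Rn45s share as a term in the edgeR fit, chosen after seeing the data, 2 of the 19 calls remained: Cox8a (0.65, adjusted p = 0.0310) and Atp5l (-0.65, adjusted p = 0.0382). Every one of the 19 kept its sign there. Of the 17 that no longer passed, 4 kept at least 0.8 of their log2 fold, among them Atp5d at -0.35 and Cox7a2l at -0.33, against -0.35 for each without the term. A further 6 kept from 0.5 to under 0.8 of it, and 7 kept under 0.5, among them Uqcrfs1 at 0.33 and Cox7c at 0.34.

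Markers of other cells also differed between BAT libraries. All 13 fast skeletal muscle markers were in the table and summed to 168 to 2313 CPM in IgG1 and 4.98 to 2378 CPM in 3P10, and with their sum as a term 17 of the 19 calls remained. Cox6a2, the muscle form, read 0 to 95.2 CPM in BAT and did not pass (0.20 ± 0.68, adjusted p = 0.888). In 3P10 against IgG1, 3 of 7 fibroblast and preadipocyte genes fell and 0 rose. Dcn, their defining marker, read 303 to 411 CPM in IgG1 and 181 to 245 CPM in 3P10, without overlap, while the list of 8 summed to 475 to 749 CPM and 446 to 579 CPM, with overlap. The median log2 difference of the 7 genes was 0.04. Of 7 endothelial genes 1 fell, with the list at 475 to 1044 CPM in IgG1 and 509 to 741 CPM in 3P10, and of 10 fat cell genes 1 rose and 2 fell. Of 4 macrophage genes 0 passed. The part of these cells in the members' result was not tested.

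IgG1 against NTB gave 1 call in BAT among the 37 members, where 2.97% of all genes were called. Atp5l rose by 0.52 ± 0.13 (SE, adjusted p = 0.0311), from 27.8 to 37.7 CPM in NTB to 37.5 to 47.7 CPM in IgG1, with NTB replicate 6 inside the IgG1 range. The call ended when any of 6 libraries was left out (NTB replicates 1, 3 and 5 and IgG1 replicates 3, 4 and 5). At an unadjusted p under 0.05 there were 4 members. Uqcrc1 read 622 to 727 CPM in NTB, 768 to 830 CPM in IgG1 and 502 to 775 CPM in 3P10, and did not pass in IgG1 against NTB. 3P10 against NTB gave 8 higher and 1 lower member, 24.3% of the 37, against 5.75% of all genes (3.03% higher, 2.72% lower). Groups did not overlap for 2 of the 37, Cox6a1 and Uqcr11, against 3.00% of all genes. Cox6a1 read between 1232 and 1433 CPM in NTB mice and 1643 to 1838 CPM under 3P10 (0.39 ± 0.07, adjusted p = 0.00508). The others that rose were Cox8a (0.81 ± 0.16), Cox7b (0.58 ± 0.12), Cox6b1 (0.51 ± 0.11), Atp5f1 (0.43 ± 0.10), Uqcr11 (0.42 ± 0.10), Uqcrfs1 (0.61 ± 0.17) and Uqcrc2 (0.37 ± 0.11), and Atp5d fell by 0.30 ± 0.08, with adjusted p from 0.00914 to 0.0439. The count was 5 without NTB replicate 3 and 14 without NTB replicate 2 or without 3P10 replicate 2. With the Rn45s share as a term, Cox6a1 alone of the 9 remained (0.35, adjusted p = 0.0336). Of the other 8, Atp5d stood at -0.30 as before, and 7 kept from 0.5 to under 0.8 of their log2 fold, such as Uqcrfs1 at 0.31.

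Genes that build or serve these complexes were counted from lists outside the rule. The lists were chosen with earlier results of these data known, so their shares are no independent evidence. Over the 6 lists, 13 of 66 genes tested rose (19.7%) and 2 fell (3.03%) in BAT of 3P10 against IgG1 mice, where 6.05% and 5.58% of all genes did. Counts in single lists are small, and some lie near those shares. In BAT, 3P10 against IgG1, 4 of 23 complex IV assembly and associated genes rose and 0 fell: Lrpprc, which stabilises mitochondrial mRNA (0.75 ± 0.14, adjusted p = 0.00135), Cox18, which inserts a core subunit (0.72 ± 0.15, adjusted p = 0.00322), Higd1a (0.84 ± 0.23, adjusted p = 0.0203) and Cox15, which makes heme A (0.93 ± 0.26, adjusted p = 0.0249). Of 5 genes tied to complex V, Tmem70, an assembly factor, rose (0.54 ± 0.12, adjusted p = 0.00579), as did Usmg5, a small associated subunit (1.09 ± 0.25, adjusted p = 0.00765). Of 7 complex II genes, Sdhaf4 (0.82 ± 0.18), Sdhc (0.49 ± 0.13) and Sdha (0.27 ± 0.08) rose. Of 7 complex III genes outside the rule, Ttc19, which clears fragments of the Rieske protein, fell by 0.50 ± 0.15 (adjusted p = 0.0383). Of 11 electron carrier genes, Coq9 (0.54 ± 0.12) and Coq3 (0.46 ± 0.12) rose and Coq7 fell by 0.47 ± 0.10. Of 13 nuclear regulators, Esrrg (0.97 ± 0.17, adjusted p = 0.00131) and Ppara (0.94 ± 0.17, adjusted p = 0.00129) rose. Of 9 thermogenic fat cell markers tested, 6 rose and 1 fell. The list's 10 genes summed to 8890.5 to 10319 CPM in IgG1 and 10815 to 14187 CPM in 3P10. The mitochondrially encoded subunits were not analysed here.

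White fat showed large differences between libraries and few calls. Of 41 members tested in IgG1 against NTB, 0 passed in edgeR, where 8.64% of all genes did; 37 folds were positive, 16 had an unadjusted p under 0.05 and DESeq2 called 11. In 3P10 against IgG1, 1 member passed, where 7.42% of all genes did; 38 folds were negative, 21 had an unadjusted p under 0.05 and DESeq2 called 12. That member was Atp5sl, known as an assembly factor of complex I. It read 17.7, 34.96, 17.8, 37.2 and 24.6 CPM in IgG1 and 12.1 to 18.998 CPM in 3P10, a fall by 0.70 ± 0.20 (adjusted p = 0.0491). IgG1 replicates 2, 4 and 5 lay above the 3P10 range and replicates 1 and 3 within it. The call ended when any of 13 libraries was left out, all but IgG1 replicates 1 and 3. 3P10 against NTB gave 0 calls among members and 0% of all genes, with 2 members at an unadjusted p under 0.05 and 0 in DESeq2. Median log2 differences of the members were 0.55, -0.60 and -0.08 in that order. The shares of all genes at an unadjusted p under 0.05 or called by DESeq2 are not given here, so those member counts have no background beside them.

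**Figure D4:**
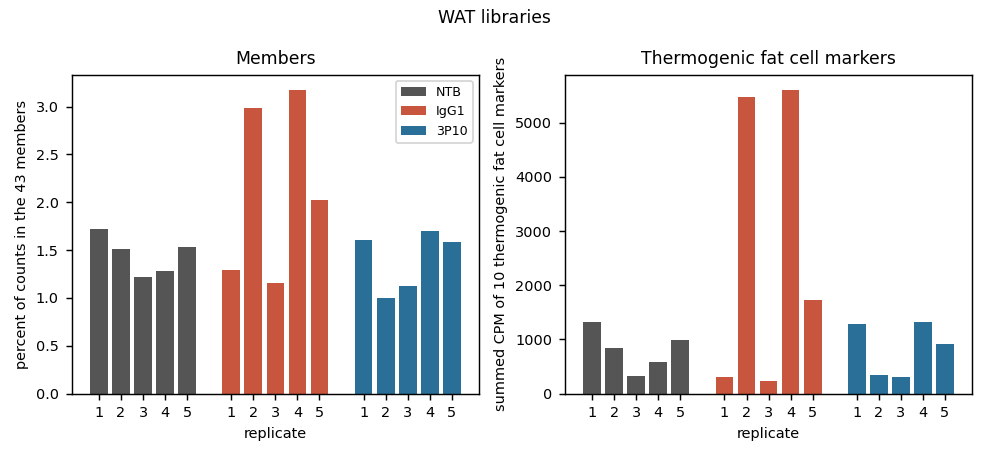
Percent of counts held by the 43 members (left) and summed CPM of 10 thermogenic fat cell markers (right) in each WAT library, by group and replicate. IgG1 replicates 2 and 4 stand at 2.99 and 3.18% of counts and at 5481 and 5609 CPM, and the other IgG1 libraries reach 2.03% and 1735 CPM at most.

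Within IgG1, replicates 2 and 4 stood highest in members and in thermogenic markers. Replicate 4 held 80.7 M counts, where the other WAT libraries held 18.6 to 34.4 M. The part of this depth in its values was not tested. The 43 members held 1.29, 2.99, 1.15, 3.18 and 2.03% of counts in the 5 IgG1 libraries, 1.22 to 1.72% in NTB and 0.996 to 1.70% in 3P10. Replicate 1 lay within the NTB range, replicate 3 below it, and replicates 2, 4 and 5 above it. Ucp1 in the same IgG1 libraries read 73.6, 3286, 37.1, 3143 and 712 CPM, against 93.0 to 628 CPM over the NTB libraries and 84.6 to 622 over those of 3P10, so IgG1 replicates 1 and 3 lay below both ranges. All 10 thermogenic markers are in the table and their sum was 236 to 5609 CPM in IgG1, 329 to 1326 in NTB and 297 to 1320.5 in 3P10. Epithelial markers summed to 235 and 957 CPM in IgG1 replicates 2 and 4, where Krt14 read 0.805 and 283 CPM, and to 1.72 to 27.2 CPM in the other 13 libraries. The sum of fibroblast and preadipocyte markers was lower in all 5 IgG1 libraries than in any NTB library. The 8 genes summed to 1614.5, 761, 1635, 648 and 1046 CPM in IgG1, against 2379 to 3661 CPM over the NTB libraries and 1432 to 2788.5 under 3P10. Dcn, their defining marker, overlapped, at 506 to 1298.5 CPM over NTB and 365 to 911 CPM over IgG1. By test, 4 of the 8 genes fell in IgG1 against NTB and 4 rose in 3P10 against IgG1. Of 8 macrophage genes 3 rose in 3P10 against IgG1, with the list at 169 to 403 CPM in IgG1 and 317 to 749 CPM in 3P10. Of 10 fat cell genes 2 rose in IgG1 against NTB and 1 fell in 3P10 against IgG1. The part of these cells in the result was not tested.

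Isoforms followed the same libraries. Cox7a1 read 8.29, 181, 5.94, 184 and 59.6 CPM in IgG1, 7.19 to 83.1 over the NTB libraries and 8.65 to 36.1 over those of 3P10. It had the widest fold of any member in both comparisons with IgG1, 1.32 ± 0.82 against NTB and -1.88 ± 0.83 for 3P10 against IgG1, and neither passed (adjusted p = 0.296 and 0.158). Cox8b read 12.7, 113, 9.94, 119 and 41.3 CPM in IgG1 against 12.3 to 56.0 CPM in NTB. Cox7b read 91.5, 319, 63.4, 439 and 185 CPM, and Cox4i1 read 887, 2221, 702, 2277 and 1352 CPM. Cox8a, the form that leads in WAT, spread less, at 355, 452, 292, 523 and 402 CPM. Cox6a2 read 1.28 to 7.88 CPM in IgG1. The Cox7a1 share was 28.1 ± 20.7% in IgG1 and 21.0 ± 9.38% in NTB (SD, n = 5 each, exact permutation p = 0.516, adjusted p = 0.893).

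IgG1 replicates 2 and 4 were singled out for their high values, so leaving them out had to shrink the difference. The members' median difference was then 0.02 for IgG1 over NTB and -0.12 for 3P10 over IgG1, with 0 calls and 0 members at an unadjusted p under 0.05 in edgeR, where 0.636% and 0.103% of all genes were called. In the second comparison 33 of 41 folds were still negative. Leaving out IgG1 replicate 3, which read low, gave 17 and 22 calls, leaving out IgG1 replicate 1 gave 6 and 9, and leaving out 3P10 replicate 2 gave 2 calls in IgG1 against NTB. These counts are of members, and the share of all genes called in each of those fits is not given here. Over the 6 pathway lists outside the rule, 3 of 71 genes passed in IgG1 against NTB (4.23%) and 5 of 71 in 3P10 against IgG1 (7.04%), both under the 8.64% and 7.42% of all genes. Sdhb of complex II rose by 1.13 ± 0.32 (adjusted p = 0.0440) in IgG1 against NTB and fell by 1.16 ± 0.32 (adjusted p = 0.0442) in 3P10 against IgG1. Atpif1, the inhibitor of ATP synthase, fell by 0.55 ± 0.11 (adjusted p = 0.0124) and rose by 0.48 ± 0.11 (adjusted p = 0.0271). Surf1, an assembly factor of complex IV, rose by 0.38 ± 0.11 in the first (adjusted p = 0.0407), and Coq5, Coq6 and Polrmt fell by 0.68 ± 0.18, 0.81 ± 0.23 and 0.63 ± 0.18 in the second. Both comparisons use the same IgG1 libraries.

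In muscle, no member passed in any comparison. Of 40 members tested, edgeR called 0 for IgG1 over NTB, 0 for 3P10 over IgG1 and 0 for 3P10 over NTB, where 5.60%, 0.211% and 0% of all genes were called. Members with an unadjusted p under 0.05 numbered 3, 2 and 0, and DESeq2 called 2, 0 and 0, with the shares of all genes not given. Without NTB replicate 3, or without IgG1 replicate 1, edgeR called 1 in IgG1 against NTB. Median differences were -0.26, 0.21 and -0.07. The smallest adjusted p was that of Uqcrc1 in IgG1 against NTB (-0.45 ± 0.14, adjusted p = 0.0724), with 864, 804, 691, 783 and 849 CPM in NTB and 716, 614, 644, 421 and 521 CPM in IgG1. Of its IgG1 libraries, replicate 1 alone reached into the NTB range. Over the 6 pathway lists outside the rule, 4 of 71 genes were called in that comparison (5.63%), near the 5.60% of all genes: Ttc19 fell by 0.48 ± 0.10 (adjusted p = 0.0101), Bcs1l, which inserts the Rieske protein, by 0.46 ± 0.11 (adjusted p = 0.0269), Lrpprc by 0.52 ± 0.13 (adjusted p = 0.0296) and Cycs, cytochrome c, by 0.58 ± 0.16 (adjusted p = 0.0420).

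In muscle, 4 libraries lay apart from the rest of their groups: 3P10 replicate 2, IgG1 replicates 2 and 4, and replicate 3 of NTB. The members named here were chosen after their values were seen. Atp5e, subunit epsilon, read 173, 182, 771, 173 and 161 CPM in NTB, 144, 393, 144, 331 and 133 CPM in IgG1 and 208, 684, 177, 206 and 206 CPM in 3P10. Uqcrq read 156, 150, 951, 129 and 150 CPM in NTB, and Cox7a1 read 99.7, 88.6, 360, 74.3 and 78.9 CPM. Uqcrc2 went the other way, at 345, 315, 184, 325 and 362 CPM in NTB and 295, 224, 242, 152 and 237 CPM in IgG1. By transcript length, all 6 members under 500 nt and all 7 from 500 to under 600 nt lay above the other 11 libraries in mean log2 CPM, by medians of 0.96 and 1.04. Of the 14 members from 600 to under 1000 nt, 13 lay above, with a median of 0.98, so there was no gradation below 1000 nt. Of the 13 members of 1000 nt or more, 9 lay above, with a median of 0.30, and Uqcrc2 (-0.65), Atp5a1 (-0.36), Uqcrc1 (-0.32) and Atp5b (-0.20) lay below. Over the 12365 genes with a length, which are not independent replicates, a library's deviation from its group mean correlated with log2 transcript length at r = -0.52, -0.44, -0.42 and -0.51 in the 4 libraries and at -0.02 to 0.42 in the rest. Each group mean includes these libraries, so the positive values in the rest are partly built in.

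**Figure D5:**
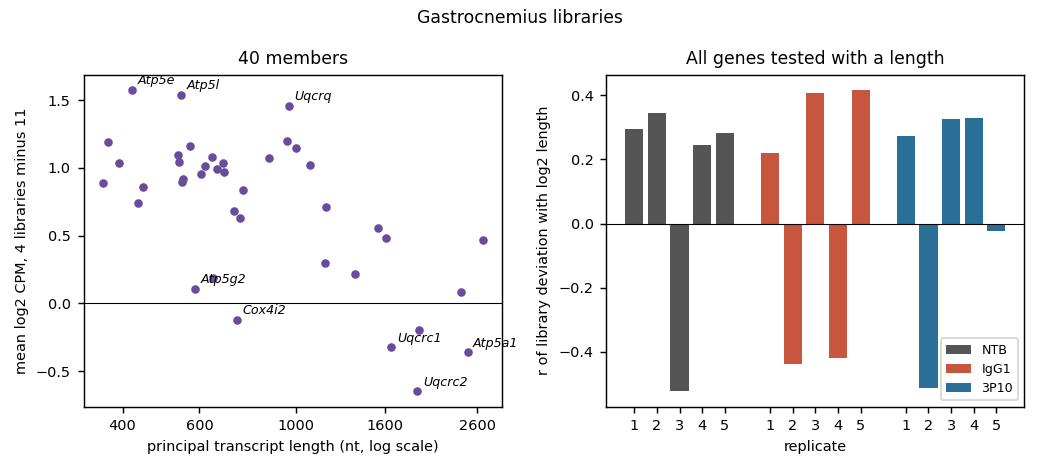
Left, for 40 members in muscle, the mean log2 CPM of 4 libraries minus that of the other 11 against transcript length in nt on a log axis; Atp5e (421 nt) lies at 1.58 and Uqcrc2 (1896 nt) at -0.65. Right, for each muscle library, the correlation over 12365 genes between its deviation from the group mean and log2 transcript length, which is between -0.42 and -0.52 in those 4 libraries.

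The 4 libraries were set apart after their values were seen, and most members read high in them. Leaving them out therefore had to narrow the spread within groups for such members, and the p-values that follow carry that limit. Without these 4 libraries, which left 4 NTB, 3 IgG1 and 4 3P10, 6 of 40 members fell in IgG1 against NTB and 0 rose, where 6.52% of all genes were called. They were Atp5h, subunit d of the stalk (-0.64 ± 0.13, adjusted p = 0.0133), Atp5g3 (-0.53 ± 0.12, adjusted p = 0.0251), Atp5j2 (-0.55 ± 0.14, adjusted p = 0.0290), Cox5b (-0.68 ± 0.17, adjusted p = 0.0347), Atp5j (-0.51 ± 0.13, adjusted p = 0.0363) and Uqcrb (-0.49 ± 0.13, adjusted p = 0.0376). Atp5h read 351, 318, 337 and 316 CPM in the 4 NTB libraries and 173, 262 and 200 CPM in the 3 IgG1 libraries, without overlap. In the libraries left out it read 895 CPM in NTB and 499 and 410 CPM in IgG1, so with all libraries the groups overlapped. RefSeq names 1 pseudogene of Cox5b. There were 22 members at an unadjusted p under 0.05 and the median was -0.29. In 3P10 against IgG1 the median was 0.31, with 0 calls, 17 members at an unadjusted p under 0.05 and 0.134% of all genes called. Markers of other cells also moved: with all libraries in the fit, 3 of 8 fibroblast and preadipocyte genes and 1 of 8 endothelial genes fell in IgG1 against NTB and 0 rose. The first list summed to 742 to 893 CPM over the NTB libraries and 462 to 660 over those of IgG1, without overlap, and to 488 to 631 CPM under 3P10. Its defining marker Dcn overlapped, at 308 to 433 CPM over NTB and 299 to 445 CPM over IgG1. The second summed to 130 to 312 CPM over NTB and 95.1 to 210 over IgG1. Their part in the members' result was not tested.

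Muscle isoform shares moved little. Cox6a2 held 95.0 ± 1.05% of its pair in NTB, 94.7 ± 2.22% in IgG1 and 92.3 ± 4.24% in 3P10 (SD, n = 5 each). Cox7a1 held 60.8 ± 4.91, 53.7 ± 4.70 and 60.3 ± 2.73% in the same order. The exact permutation p was 0.0556 for IgG1 against NTB and 0.0317 for 3P10 against IgG1, and the adjusted p was 0.417 and 0.286. Across all tissues, 0 of 45 isoform share tests passed after adjustment and 5 had an exact p under 0.05. The smallest possible exact permutation p was 0.00216 in BAT and 0.00794 in WAT and GN. A single test at that floor could not pass after adjustment over the 45, so the count of 0 does not tell whether shares moved.

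Whether tumour and antibody effects differed between WAT and GN was tested as an interaction in the joint edgeR fit. It called 0 of 41 members for IgG1 over NTB, for 3P10 over IgG1 and for 3P10 over NTB, where 1.11%, 0.208% and 0% of all genes were called. Members with an unadjusted p under 0.05 numbered 18, 18 and 0, and DESeq2 called 4, 2 and 0, with the shares of all genes not given. Without WAT IgG1 replicate 3 the first 2 edgeR counts of members were 6 and 5, and without WAT IgG1 replicate 1 they were 5 and 3. Those libraries held the lowest shares of counts in members within WAT IgG1. In IgG1 against NTB, 38 of 41 differences were positive (WAT minus GN) with a median of 0.83, and Uqcrc1 came nearest to the threshold (1.53 ± 0.40, adjusted p = 0.0513). WAT IgG1 replicates 2 and 4, which stood high in members, are part of these differences. In the WAT fit, the members' median for IgG1 over NTB was 0.55 with them and 0.02 without them. The interaction without them is not given here. Over the 6 pathway lists, 6 of 71 genes passed (8.45%): Cyc1, the cytochrome c1 subunit of complex III (1.45 ± 0.37, adjusted p = 0.0451), Bcs1l (0.85 ± 0.21), Coa7 (1.26 ± 0.29), Sdhb (1.54 ± 0.36), Coq5 (0.88 ± 0.21) and Coq6 (1.19 ± 0.29). With the library number as a block, 0 of these 6 passed, with Cyc1 at 1.30 ± 0.40 (adjusted p = 0.173) and Uqcrc1 at 1.33 ± 0.44 (adjusted p = 0.197), and again 0 members. BAT was not part of this fit, so whether its change differs from the other tissues was not tested.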

How the data were processed

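Gene counts of 47 libraries were used as the authors deposited them, as whole read counts per gene in 24391 rows for BAT and for WAT with GN. Per the submitters' processing notes, Trim Galore, STAR 2.6.0a, featureCounts 1.6.2, edgeR 3.22.3 and the mm9 build were used. Annotation, strand setting and handling of the molecular identifiers in BAT are not given in the sources used here, so antisense or overlapping genes and PCR copies cannot be told apart in these counts. Intervals and floors cover counting error only: at 0 reads, 3 counts are still possible, or 1.25 to 3.68 CPM in BAT, 0.0395 to 0.161 CPM in WAT and 0.0838 to 0.143 CPM in GN.

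Samples were grouped by the labels. Genes passing filterByExpr (minimum count 10, minimum total 15) were tested with edgeR 4.0.16 in R 4.3.3 (quasi-likelihood test, TMM factors), with the 3 groups of a tissue in 1 fit and WAT with GN in a joint fit. P-values were adjusted by Benjamini-Hochberg over all genes tested, 8711 in BAT, 14402 in WAT, 13283 in GN and 14898 in the joint fit, and called under 0.05. Isoform shares were compared by 2-sided exact permutation tests. Transcript lengths are those of principal GENCODE transcripts, and promoters are from RefSeq. The closest pair of replicates differed by a chi-square per degree of freedom of 2.33 in BAT, 30.3 in WAT and 17.9 in GN, so no library was counted as a duplicate. The pipeline was tested on simulated data.

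Values per library are given for up to 8 called members per comparison with the smallest adjusted p, for isoforms of tissue-specific sets and for members called in the interaction, and up to 4 called genes are named per pathway list. The members and lists were chosen with earlier results of these data known. Alternatives were DESeq2 1.42.0, RLE factors, other low-count filters, 2-group fits, a replicate block, marker terms and libraries left out. Members called under an alternative, or at an unadjusted p under 0.05, are counted without the share of all genes there, except where that share is printed.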

Additional observations from a re-analysis of the deposited data

Results flagged for a closer look

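Of 201 sets of values looked at (a member or isoform share in 1 group of 1 tissue), 22 held a library whose gap to its nearest neighbour passed Dixon's critical value. Chance flags about 1 in 20 groups, and members share their libraries. In GN, NTB replicate 3 stood high for 10 isoform members: Atp5g3 (1185 CPM), Cox4i1 (1273), Cox6a1 (65.8), Cox6a2 (1251), Cox6b1 (864), Cox7a1 (360), Cox7a2 (165), Cox7a2l (174), Cox7b (424) and Cox8b (121 CPM). GN 3P10 replicate 2 stood high for 6 of them: Atp5g3 (876 CPM), Cox4i1 (1050.2), Cox6b1 (697), Cox7a1 (224), Cox7a2 (127) and Cox7b (351 CPM). Both are among the 4 muscle libraries in which short transcripts were high.

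In BAT, Atp5l stood at 37.7 CPM in NTB replicate 6 against 30.7 CPM in the next library, and Cox6b1 at 1096 CPM in IgG1 replicate 4 against 864 CPM. Cox6a2 stood at 95.2 CPM in 3P10 replicate 4, where it held 4.92% of Cox6a reads, and Cox6b2 at 5.28 CPM in NTB replicate 3. Fast skeletal muscle markers summed to 2378 CPM in 3P10 replicate 4, the highest of the 3P10 libraries, and their part in its Cox6a2 value was not tested. In WAT, Cox4i2 held 0.459% of its pair in 3P10 replicate 3 against 0.199% in the next library.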

How the results depend on the processing

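No result reversed. Under DESeq2 the members called were 15 in BAT 3P10 against NTB, 11 in WAT IgG1 against NTB, 12 in WAT 3P10 against IgG1, 2 in GN IgG1 against NTB, and 4 and 2 in the WAT minus GN differences of IgG1 against NTB and 3P10 against IgG1. The single BAT call in IgG1 against NTB became 0 with no low-count filter, with 2 groups only and with the replicate block. The single WAT call in 3P10 against IgG1 became 0 under the same 3 settings and without IgG1 replicates 2 and 4, while WAT IgG1 against NTB gave 1 with 2 groups only. With the Rn45s share as a term, chosen after seeing the data, the BAT counts were 2 for 3P10 against IgG1 and 1 for 3P10 against NTB. GN IgG1 against NTB gave 6 without the 4 libraries that stand apart. The WAT minus GN difference in IgG1 against NTB gave 1 with RLE factors and 1 with a filter of 1 CPM. The cause was not tested.

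Leaving out 1 library at a time, calls ranged from 0 to 1 in BAT IgG1 against NTB, 13 to 20 in 3P10 against IgG1 and 5 to 14 in 3P10 against NTB. In WAT they ranged from 0 to 17, 0 to 22 and 0 to 0 in the same order, and in GN from 0 to 1, 0 to 0 and 0 to 0. GN against WAT ranged from 32 to 39, the differences between tissues from 0 to 6, 0 to 5 and 0 to 0, and isoform share tests from 0 to 0. In the isoform share tests, a single test at its smallest possible p could not pass, with or without a library left out. Within a tissue, replicate numbers are only names in the labels: correlations of same-numbered libraries ran from -0.14 to 0.08 in BAT, -0.21 to 0.47 in WAT and -0.60 to 0.56 in GN. WAT and GN libraries of one group share library numbers, which may mark the same mice, and their 15 pairs correlated at -0.16 to 0.20, 6 of them over 0.1. With the replicate block, calls were 0, 13 and 6 in BAT and 0 in each WAT and GN comparison. With the library number as the replicate block, they were 35 in GN against WAT and 0 in each difference between tissues. BAT libraries hold at most 2.46 M counts, so members at a few CPM there could not be tested.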
